A study of Homo sapiens with 80 samples.

Results

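A set of 8 transcription factor genes of the early heart was followed through cardiomyocyte differentiation: NKX2-5, ISL1, TBX1, TBX2, TBX3, TBX5, TBX20 and MEF2C. They are 8 of the 43388 genes in the deposited tables, were listed as factors of the first and second heart fields and the conduction system, and were looked up by symbol in both experiments. RNA was measured in 80 libraries of human pluripotent stem cells given CHIR99021, which activates WNT signalling, on day 0, followed by IWP2, which blocks secretion of WNT proteins, and later by insulin. High and low purity refer to whole differentiations, sorted by flow cytometry of cardiac troponin T on day 16. The multi-omic experiment used 1 induced pluripotent line, WTC11: its 25 high purity libraries were wells of 1 differentiation begun at passage 52, and its 31 low purity libraries were wells of 1 differentiation begun at passage 69. There the purity class cannot be told apart from the passage or from the single differentiation behind it, and p-values measure only the spread between wells. Each class had 4 wells on days 0 to 6; high and low purity had 3 and 4 wells on day 8, 1 and 4 on day 10, 2 and 4 on day 13, and 3 and 3 on day 16. The RNA-only experiment held 24 libraries of a total RNA kit from the embryonic line H9 (low at passage 55, high at 58), the induced line IMR90-4 (high at 55, low at 75) and WTC11 (low at 69, high at 81). Each of these 6 differentiations gave 1 library at each of 4 stages: day 0, after CHIR99021 (day 2 in WTC11, day 3 in the other lines), after IWP2 (day 4 or 5) and at insulin addition (day 6 or 7).

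The heart is built from a pair of adjoining fields of mesoderm. Cells of the first heart field differentiate early and give most of the left ventricle and part of the atria, with TBX5 as a defining factor. Cells of the second heart field divide for longer under ISL1 and TBX1 and are added later as the outflow tract, right ventricle and parts of the atria. NKX2-5, a homeodomain factor, MEF2C, a MADS box factor, and TBX20, a T-box factor, act in both fields and bind the regulatory regions of many muscle genes. TBX2 and TBX3 are T-box repressors that keep the chamber muscle program off in the atrioventricular canal and, for TBX3, in the sinus node and the conduction system.

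Promoter sequence was available in the RefSeq table of GRCh38.p14 for 5 of the 8 members (ISL1, TBX1, TBX5, TBX20 and MEF2C), in 12 windows. The 250 bases before the first base of the transcript are shown for the 4 of these genes whose RNA rose between day 2 and day 4 in both WTC11 differentiations, read 5′ to 3′ on the gene's strand. Of the 7 windows of MEF2C, 1 of the 4 with 2 matches is shown, and of the 2 windows of TBX5 the one farther upstream. Capitals mark matches to any of 4 short motifs on either strand: AGGTGT (the T-box element), AAGTG (the core bound by NKX factors), AGATAA (bound by GATA factors) and TATAAA (the TATA box).
ISL1, chr5:51383198-51383447, plus strand: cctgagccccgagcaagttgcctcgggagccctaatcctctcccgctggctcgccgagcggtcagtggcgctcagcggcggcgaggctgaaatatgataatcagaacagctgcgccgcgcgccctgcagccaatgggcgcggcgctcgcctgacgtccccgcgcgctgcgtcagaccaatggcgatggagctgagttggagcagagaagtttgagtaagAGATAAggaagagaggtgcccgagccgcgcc
MEF2C, chr5:88884537-88884786, minus strand: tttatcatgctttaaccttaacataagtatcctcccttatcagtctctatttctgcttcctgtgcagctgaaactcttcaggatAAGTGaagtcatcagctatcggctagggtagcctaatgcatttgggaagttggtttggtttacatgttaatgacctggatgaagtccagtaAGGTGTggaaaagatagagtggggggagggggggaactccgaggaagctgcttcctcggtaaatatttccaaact
TBX20, chr7:35254101-35254350, minus strand: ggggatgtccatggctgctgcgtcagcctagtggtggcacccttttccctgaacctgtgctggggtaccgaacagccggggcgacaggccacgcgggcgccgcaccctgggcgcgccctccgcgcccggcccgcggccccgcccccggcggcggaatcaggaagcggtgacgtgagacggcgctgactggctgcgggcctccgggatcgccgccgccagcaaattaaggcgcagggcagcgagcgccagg
TBX5, chr12:114408443-114408692, minus strand: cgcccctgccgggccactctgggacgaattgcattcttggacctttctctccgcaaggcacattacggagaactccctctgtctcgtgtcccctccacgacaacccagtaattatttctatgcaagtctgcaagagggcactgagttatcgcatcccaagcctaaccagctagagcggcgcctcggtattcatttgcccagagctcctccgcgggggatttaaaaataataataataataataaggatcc
The ISL1 window held AGATAA once, 31 to 26 bases before the start, and 9.17% of all 35116 windows of this length held that motif. The MEF2C window shown held AGGTGT 75 to 70 bases before the start and AAGTG 166 to 162 bases before it. Over the 7 MEF2C windows, 3 held AGGTGT and 6 held AAGTG, against 9.57% and 37.6% of all windows. The TBX20 window and both TBX5 windows held none of the 4 motifs, nor did the TBX1 window, and TATAAA, which 10.7% of all windows held, was in no member's window. These are matches of letters in short windows and say nothing of binding.

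Reads assigned to genes, as recovered from TPM, were between 6579715 and 18143597 in multi-omic libraries. In RNA-only libraries the deposited counts summed to between 17990882 and 40357968. TPM, the unit used here, is a share of all transcripts after division by gene length. Levels of different genes can so be set side by side within a library, but their order differed between the multi-omic and the RNA-only experiment. The deposited multi-omic counts and TPM disagree on names: 0 of 56 count columns matched the equally named TPM column. TPM names were used, since the nearest other library had the same group name for 54 of 55 TPM columns and for 28 of 55 count columns. Cardiac troponin T (TNNT2), the marker behind the classes, was at 2867 to 3702 TPM in the high purity wells of day 16 and at 827 to 1227 TPM in the low purity wells, and the classes did not overlap. On day 4 the order was the opposite, with 10.3 to 20.8 TPM in the high and 457 to 524 TPM in the low purity wells.

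TBX3 was the first member to come on in WTC11. It was at 0 to 0.0928 TPM in all 8 wells of day 0 and at 58.0, 60.0, 72.2 and 73.1 TPM in the high purity wells of day 2, against 84.5, 87.7, 88.5 and 97.7 TPM in the low purity wells. TBX20 was next on that day, at 0.513 to 1.52 TPM over all 8 wells. TBX3 was the only 1 of the 7 members tested that changed from day 0 to day 2, by 6.10 ± 0.16 (SE) on the log2(TPM + 1) scale in high purity and 6.45 ± 0.16 in low purity wells (limma, adjusted p = 1.63e-32 and 1.86e-33). A gene was called changed at a Benjamini-Hochberg adjusted p under 0.05 over all 25664 genes tested and a log2 change of at least 1. By that rule 9.66% of all genes rose in this interval in high purity and 11% in low purity wells. TBX1 did not pass the filter of 1 TPM in 3 libraries and was not in this test, and all 7 others passed. No member was called between the classes on day 0, when 1.07% of all genes were, and no member's change from day 0 to day 2 differed between the classes (3.22% of all genes).

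**Figure D1:**
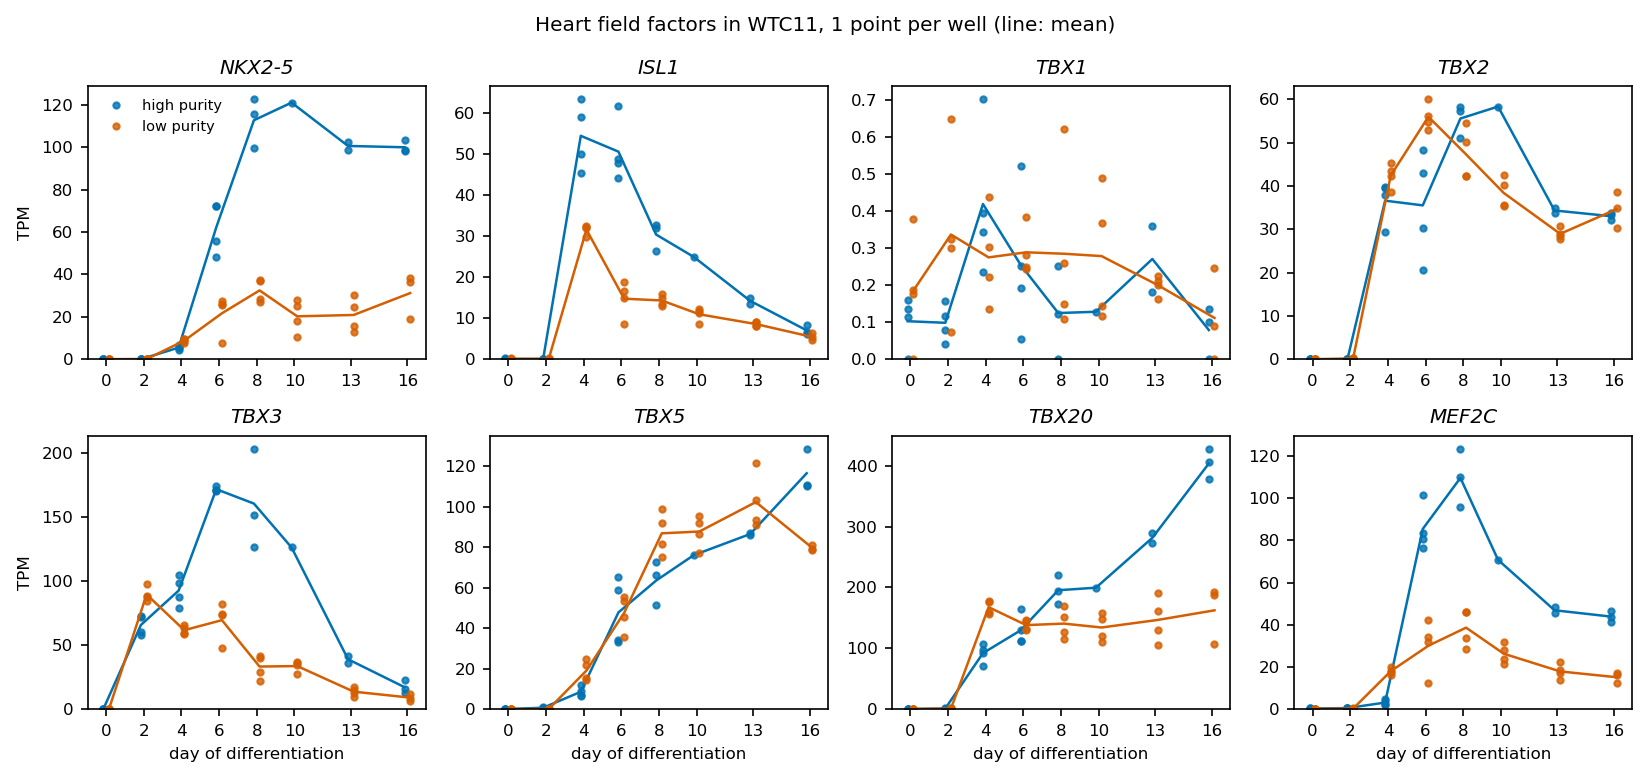
TPM of the 8 genes in WTC11 by day of differentiation (horizontal axis), with 1 point per well, high purity in blue and low purity in orange, and lines through the means. Each panel has its own vertical axis from 0. TBX3 alone is at 58.0 TPM or more on day 2, ISL1 is highest on day 4 in both classes, and TBX20 is highest on day 16 in the high purity wells.

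Between day 2 and day 4 the other 6 tested members all rose, in both differentiations. In high purity wells ISL1 rose by 5.66, TBX20 by 5.51, TBX2 by 5.11, NKX2-5 by 2.59, TBX5 by 2.43 and MEF2C by 1.37, and in low purity wells by 4.82, 6.45, 5.15, 3.13, 4.16 and 3.88 (limma, SE 0.13 to 0.25, largest adjusted p = 2.38e-07). Over all genes 6.73% rose in high purity and 8.17% in low purity wells. ISL1, the LIM homeodomain factor of second heart field progenitors, had its highest mean level on this day in both classes. Its 4 high purity wells held 45.4, 50.2, 59.0 and 63.5 TPM and its low purity wells 29.8, 32.0, 32.3 and 32.4 TPM, so every high purity well lay above every low purity well. TBX1 reached 0.235 to 0.703 TPM in high purity wells on day 4, from 6 to 18 reads, its highest mean of any day there.

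The rise between day 2 and day 4 was smaller in high purity wells for MEF2C and TBX5. The difference of the changes was −2.52 ± 0.29 for MEF2C and −1.72 ± 0.24 for TBX5 (limma, adjusted p = 1.72e-09 and 1.31e-07), 2 of 7 members where 4.58% of all genes differed in that direction. TBX3 (0.95 ± 0.22) and TBX20 (−0.94 ± 0.22) came close to the threshold, and each passed it without 1 well, TBX3 at 1.01 without high purity day 2 well 4 and TBX20 at −1.01 without high purity day 4 well 4.

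Of the 7 tested days, day 4 was the only one on which members were called lower in high purity wells, and these were 2 of 7: MEF2C and TBX5. Over all genes 7.84% were called on this day and 4.22% were called lower. MEF2C stood at 1.87, 2.28, 3.64 and 4.61 TPM in high purity wells against 16.4, 17.5, 18.0 and 20.01 TPM in low purity wells, a difference of −2.24 ± 0.20 (adjusted p = 1.93e-12). TBX5 stood at 6.42, 7.04, 9.004 and 11.7 TPM against 14.1, 15.6, 21.7 and 24.7 TPM, a difference of −1.06 ± 0.17 (adjusted p = 1.46e-06). In both genes every high purity well was below every low purity well, and 6 of 7 members had no overlap on this day in either direction, as did 31.7% of all genes. The TBX5 difference lay close to the threshold: it was −0.99 without high purity well 2 or low purity well 3, −0.96 without high purity well 3 and −0.93 without low purity well 2, which ends the call. TBX20 differed by −0.87 ± 0.15 and NKX2-5 by −0.59 ± 0.25, both short of the threshold, while ISL1 differed by 0.76 ± 0.13 and TBX3 by 0.58 ± 0.16 in the other direction. TBX2, the one member with overlapping wells, differed by −0.21 ± 0.13, with a mean of 36.6 ± 4.905 TPM (SD, n = 4) in high and 42.4 ± 2.85 TPM (SD, n = 4) in low purity wells.

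In bulk RNA, fewer cells of a type and less RNA per cell cannot be told apart, and this holds for all values given here. On day 4, 8 of 9 cardiomyocyte markers were called lower in high purity wells, as were MEF2C, TBX5 and 4.22% of all genes. The 9 summed to 191 to 272 TPM there against 1807 to 2024 TPM in low purity wells. Other lists of heart genes varied on this day. Of 12 chamber muscle genes 3 were called higher and 4 lower, as were 3 and 4 of 12 sinoatrial and conduction genes. Of 12 second heart field genes 4 were higher and 1 lower, and of 16 tested cofactors 0 were higher and 4 lower. The 7 stromal markers summed to 342 to 515 TPM in the high and 1396 to 1471 TPM in low purity ones, and the 6 pluripotency markers to 1852 to 2451 and 969 to 1094 TPM. Their part in the differences of the members was not tested. TBX5 had no overlap between the classes on day 2: it was at 0.336, 0.515, 0.733 and 1.05 TPM (7 to 24 reads) in high purity wells and at 0, 0, 0 and 0.201 TPM (0 to 3 reads) in low purity wells. The difference of 0.66 ± 0.17 on the log2(TPM + 1) scale missed the threshold (adjusted p = 0.0014), and no member was called on day 2, when 5.33% of all genes were. The scale understates changes of low genes: with 0.1 TPM in place of 1 the difference was 2.48, and edgeR on the reads recovered from TPM gave 3.71 (adjusted p = 0.00183). MEF2C also had every high purity well above every low purity well on day 2. It was at 0.401 to 0.607 TPM (11 to 24 reads) against 0.203 to 0.281 TPM (4 to 6 reads). For TBX3 every high purity well was below every low purity well. With TBX5 this makes 3 of 7 members whose wells did not overlap, against 34% of all genes.

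From day 4 to day 6 the order of the classes turned for MEF2C. On day 6 high purity wells were at 76.6, 80.4, 83.4 and 101 TPM and low purity wells at 12.2, 31.6, 34.2 and 42.2 TPM, so that the lowest high purity well now stood above the highest low purity well. The change was 4.34 ± 0.20 in high and 0.53 ± 0.20 in low purity wells, and the second of these was not called (adjusted p = 0.0398 with a change under 1). The difference between the 2 changes was itself called, at 3.81 ± 0.29 (adjusted p = 1.87e-14). NKX2-5, with a difference of the changes of 2.17 ± 0.36, and TBX5, with 1.01 ± 0.24, were called likewise, so the change of 3 of 7 members was larger in high purity wells, as was that of 3.8% of all genes. TBX5 sat at the threshold here too, and 7 of the 16 wells of these days, each left out alone, put it under 1 (0.81 to 0.94). ISL1 was just under, at 0.97 ± 0.18, and was called, at 1.00 to 1.09, when any of 7 single wells was left out.

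NKX2-5 reached 48.4, 55.9, 72.1 and 72.4 TPM in high purity wells on day 6. The low purity wells were at 7.71, 25.4, 26.2 and 27.5 TPM, 1 of them far below the other 3. Within high purity wells 3 of 7 members rose in this interval (NKX2-5 by 3.19, TBX5 by 2.23 and MEF2C by 4.34), where 4.53% of all genes rose. Within low purity wells NKX2-5 rose by 1.01 and TBX5 by 1.23 while ISL1 fell by 1.15, and 3.88% of all genes rose and 2.74% fell. The NKX2-5 rise in low purity wells lost its call, at 0.87 to 0.99, without low purity day 4 well 1 or 3 or day 6 well 1, 2 or 3. The ISL1 fall was −0.95 without low purity day 6 well 4, the same well that was lowest for NKX2-5.

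On day 6, 4 of 7 members were called higher in high purity wells, where 3.61% of all genes were: ISL1 by 1.73 ± 0.13, NKX2-5 by 1.58 ± 0.25, MEF2C by 1.58 ± 0.20 and TBX3 by 1.31 ± 0.16 (limma, largest adjusted p = 1.50e-06). TBX3 was at 170 to 174 TPM in the 4 high purity wells and at 47.8, 73.3, 74.6 and 82.4 TPM in the low purity wells. No other T-box member was called. TBX5 (47.7 ± 16.7 against 47.4 ± 8.85 TPM, SD, n = 4 each) and TBX20 (129 ± 25.3 against 138 ± 8.37 TPM) had overlapping wells and differences of −0.05 ± 0.17 and −0.13 ± 0.15. TBX2 was lower in all 4 high purity wells, at 20.5 to 48.3 against 52.9 to 60.0 TPM, by −0.73 ± 0.13, short of the threshold. The wells of 5 of 7 members did not overlap on day 6, against 30.7% of all genes. Each of these 4 calls, and each of the 4 on day 8 and on day 13, held when any 1 well was left out.

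Low purity day 6 well 4 was the lowest of its group for NKX2-5, ISL1, TBX1, TBX3, TBX5, TBX20 and MEF2C, though not for TBX2. For TBX20 the gap was small, at 130 against 131 TPM in well 3, and for TBX1 wells 2 and 4 held 3 reads each. The 8 members summed to 299 TPM in well 4 and to 377 to 425 TPM in the other 3. In the same well the 9 cardiomyocyte markers summed to 1942 TPM, against 3382 to 3851 TPM in the other 3, and the 7 stromal markers to 4847 TPM, against 3123 to 3403 TPM. Their part in its low values was not tested.

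Between day 6 and day 8 fewer members moved. NKX2-5 rose by 1.10 ± 0.27 in high purity wells, 1 of 7 members where 2.87% of all genes rose, and this call was lost without high purity day 6 well 3 (0.9997) or day 8 well 4 (0.99). TBX3 fell by 1.06 ± 0.16 in low purity wells, 1 of 7 where 1.28% of all genes fell, and the fall was −0.97 without low purity day 6 well 2 and −0.89 without day 8 well 1. TBX2 and TBX3, the repressors, were the 2 of 7 members whose change was greater in high purity wells (by 1.19 ± 0.19 and 1.18 ± 0.23, adjusted p = 5.12e-06 and 0.000161, with 1.86% of all genes called in that direction). For TBX2 that difference was 0.97 without high purity day 6 well 3, which ends the call. TBX2 itself went from a mean of 35.5 to 55.5 TPM in high purity wells, 0.94 ± 0.14 and not called, and was called at 1.05 to 1.08 without day 6 well 1, day 6 well 4 or day 8 well 1.

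The largest differences of any member between the classes on the tested days were those of TBX3 on day 8 and NKX2-5 on day 13. On day 8 TBX3 stood at 127, 151 and 203 TPM in high purity wells and at 22.3, 28.7, 40.2 and 41.8 TPM in low purity wells, a difference of 2.48 ± 0.17 or 5.58-fold on the log2(TPM + 1) scale (adjusted p = 1.62e-16). NKX2-5 stood at 99.5, 116 and 123 TPM against 26.9, 28.3, 37.0 and 37.6 TPM, a difference of 2.00 ± 0.27. MEF2C and ISL1 were also called higher, by 1.73 ± 0.22 and 1.25 ± 0.14, so that 4 of 7 members were, with 4.66% of all genes. TBX20 differed by 0.71 ± 0.16, TBX2 by 0.46 ± 0.14 and TBX5 by −0.22 ± 0.18, and none of these was called. On day 10 the single high purity well held 121 TPM of NKX2-5, against 10.3 to 27.9 TPM in the 4 low purity wells, and 126 TPM of TBX3, against 27.4 to 36.6 TPM.

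On day 13 NKX2-5 was at 98.8 and 102 TPM in the 2 high purity wells and at 12.8, 15.6, 24.7 and 30.4 TPM in the low purity wells. The difference of 2.48 ± 0.31 (adjusted p = 8.89e-09) was its largest on any tested day. TBX3, MEF2C and TBX20 were called with it, at 1.66 ± 0.19, 1.55 ± 0.25 and 1.16 ± 0.19, which makes 4 of 7 members against 4.55% of all genes. ISL1 had dropped out of the calls, at 0.85 ± 0.16. TBX5 was at 86.0 and 86.9 TPM in high purity wells and at 90.8 to 121 TPM in low purity wells, −0.04 ± 0.21 after scaling between libraries.

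On day 16, when purity was measured, 4 members were again called higher in high purity wells: NKX2-5 by 1.93 ± 0.29, MEF2C by 1.71 ± 0.24, TBX20 by 1.58 ± 0.18 and TBX3 by 1.07 ± 0.18 (4 of 7 members, with 5.76% of all genes, limma, largest adjusted p = 2.48e-06). TBX20 was at 378, 405 and 428 TPM in high purity wells and at 106, 188 and 193 TPM in low purity wells. The TBX3 difference was 0.91 without high purity well 2 and 0.88 without low purity well 1, which ends that call. TBX5 was at 110, 111 and 128 TPM against 78.5, 79.2 and 81.0 TPM; the wells did not overlap, but the difference of 0.76 ± 0.19 was short of the threshold. ISL1 differed by 0.52 ± 0.15 and TBX2 by 0.15 ± 0.15, and their wells overlapped. The other 5 of 7 members did not overlap, against 47.6% of all genes.

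**Figure D2:**
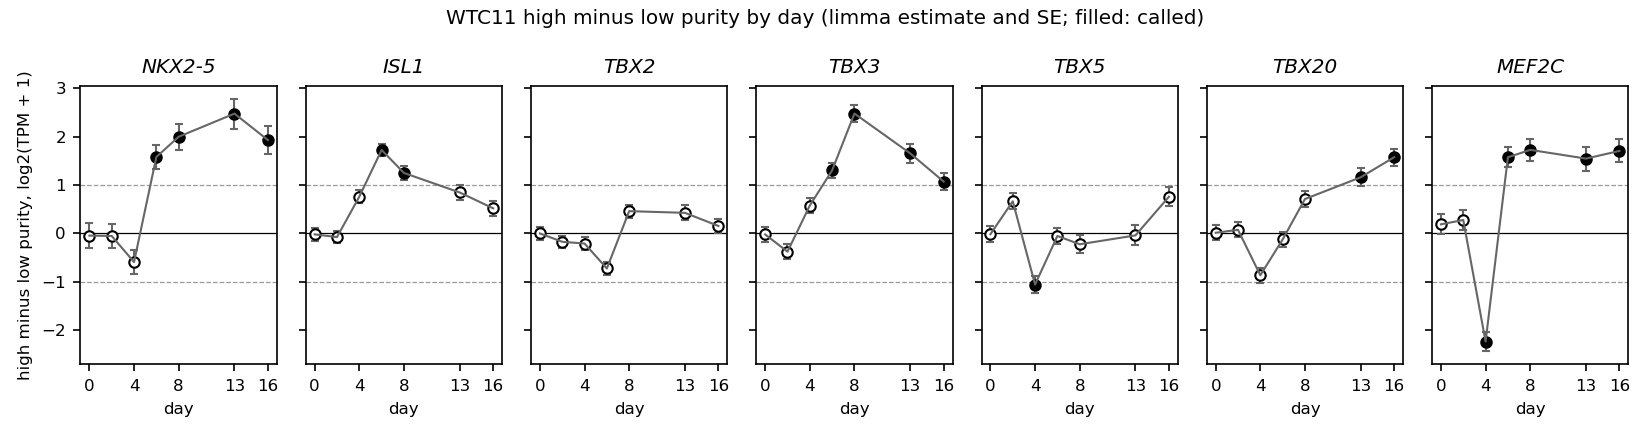
High minus low purity on the log2(TPM + 1) scale by day in WTC11 for the 7 genes tested, with the limma estimate as a point and its SE as a bar. Filled points were called (adjusted p under 0.05 and a log2 difference of at least 1, dashed lines); MEF2C goes from −2.24 on day 4 to 1.58 on day 6, and TBX5 is not called after day 4.

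Markers of other cell types differed between the classes on day 6 and day 16, and some did so earlier. On day 4, 5 of 7 stromal and 3 of 7 epicardial markers were called lower in high purity wells, with 4.22% of all genes. On days 2 and 4, 3 of 6 pluripotency markers were called higher, where 5.33% and 7.84% of all genes were called in either direction. The 7 stromal markers (COL1A1, LUM and others) summed on day 6 to 858 to 1159 TPM in the high and 3123 to 4847 TPM in the low purity wells, and to 574 to 690 and 9669 to 13143 TPM on day 16. On day 6, 5 of 7 stromal, 5 of 7 epicardial and 3 of 5 tested branchiomeric markers were called lower in high purity wells, 5 of 7 endothelial, 5 of 7 endoderm and 3 of 6 pluripotency markers were called higher, with 1 endothelial and 1 endoderm marker lower, and of the neural and skeletal muscle markers 1 of 6 and 3 of 5 were tested and 0 called. Over all genes 3.61% were called higher and 5.19% lower on day 6. The endothelial sums overlapped, at 280.2 to 337 TPM in the high and 261 to 338 TPM in the low purity wells. Endoderm markers summed to 1017 to 1463 TPM in the high and 350 to 586 TPM in the low purity wells of that day, and the 6 amnion and surface epithelium markers, of which 1 was called higher, to 430 to 507 and 120 to 211 TPM. Of the 9 cardiomyocyte markers, 1 was called higher and 1 lower on day 6. On day 16 the 7 epicardial markers summed to 20.9 to 30.4 TPM in high purity wells, where 2 of the 7 were under 1 TPM in every well, and to 418 to 570 TPM in low purity wells. The 9 cardiomyocyte markers summed to 12530 to 14629 and 4540 to 6736 TPM, and none was under 1 TPM in either class. The part of these markers in the differences of NKX2-5, MEF2C, TBX3 and TBX20 was not tested. TBX5 and TBX2 were called on none of the tested days from day 6 on.

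From day 8 to day 16 the members parted. In high purity wells TBX20 rose by 1.26 ± 0.18 and TBX5 by 1.09 ± 0.19 while TBX3 fell by 2.97 ± 0.18, ISL1 by 1.79 ± 0.15 and MEF2C by 1.09 ± 0.24, 2 and 3 of 7 members where 6.14% of all genes rose and 5.23% fell. In low purity wells TBX3 fell by 1.56 ± 0.17, ISL1 by 1.06 ± 0.14 and MEF2C by 1.07 ± 0.22, 3 of 7 where 2.8% of all genes fell. Several of these lay near the threshold. TBX5 was 0.90 without high purity day 8 well 1 and 0.88 without scaling of the libraries, MEF2C was −0.996 without high purity day 8 well 4, and in low purity wells MEF2C was −0.98, −0.97 and −0.93 without day 8 well 2, day 8 well 3 and day 16 well 1, and ISL1 −0.9986 and −0.96 without day 8 well 3 and day 16 well 1. NKX2-5 was not called, at 113 ± 11.9 TPM on day 8 and 99.9 ± 2.88 TPM on day 16 in high purity wells (SD, n = 3 each; 0.05 ± 0.29). The fall of TBX3 was greater in high purity wells, by −1.41 ± 0.25 (adjusted p = 1.55e-05), and it was the 1 member of 7 whose change differed in that direction, as 4.78% of all genes did. The highest mean of TBX3 was 10.03 times its day 16 mean in high purity wells, where it came on day 6, and 10.01 times in low purity wells, where it came on day 2.

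By day 16 the order of levels in high purity wells ran TBX20 (404 TPM), TBX5 (116 TPM), NKX2-5 (99.9 TPM), MEF2C (43.9 TPM), TBX2 (33.0 TPM), TBX3 (17.1 TPM), ISL1 (7.05 TPM) and TBX1 (0.0789 TPM), and each gene was above the next in every well. In low purity wells TBX20 (162 TPM) and TBX5 (79.6 TPM) again led, and TBX2 (34.6 TPM) and NKX2-5 (31.2 TPM), whose wells overlapped, came next. NKX2-5 was thus above TBX2 in all 3 high purity wells, but in 1 of the 3 low purity wells (36.5 against 35.0 TPM in well 3). On day 8 the high purity order was TBX20 and TBX3, which overlapped, then NKX2-5 and MEF2C, which overlapped, then TBX5 and TBX2, which overlapped, and then ISL1. In low purity wells on that day TBX5 (86.8 TPM) was second after TBX20 (140 TPM).

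Ratios within a well compare 2 genes of the same RNA. The pairs were chosen after the values were seen, so they are given as a description. TBX5 over NKX2-5 was on day 4 at 1.22 to 2.71 in the high and 1.49 to 2.59 in the low purity wells, and the ranges overlapped. On day 6 it was 0.608 to 0.905 in high and 1.80 to 4.62 in low purity wells, on day 8 it was 0.514 to 0.629 and 2.45 to 2.87, and on day 16 it was 1.07 to 1.31 and 2.06 to 4.17. From day 6 on, then, TBX5 RNA exceeded NKX2-5 RNA in every low purity well of the multi-omic experiment, and in its high purity wells only on day 16. In the RNA-only libraries of stage 4, made with another kit, the order of the classes varied between lines. There the ratio was 0.0704 in high and 5.08 in low purity H9, 0.0865 and 0.0314 in IMR90-4, and 0.152 and 0.260 in WTC11. The 0.260 was of low purity WTC11 on day 6, where the multi-omic wells of the same passage were at 1.80 to 4.62. Kit and differentiation cannot be told apart there. In the multi-omic wells TBX2 over TBX3 was 0.120 to 0.283 in high and 0.664 to 1.17 in low purity wells on day 6. It did not overlap on day 4, 8, 13 or 16 either. In the RNA-only libraries of stage 4 it was 1.88 in high and 2.15 in low purity H9, 2.79 and 0.975 in IMR90-4, and 1.44 and 1.08 in WTC11. TBX20 over MEF2C turned round between days, from 23.3 to 49.2 in high against 8.69 to 10.2 in low purity wells on day 4 to 1.38 to 1.63 against 3.46 to 10.7 on day 6, and on day 16 the ranges overlapped.

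**Figure D3:**
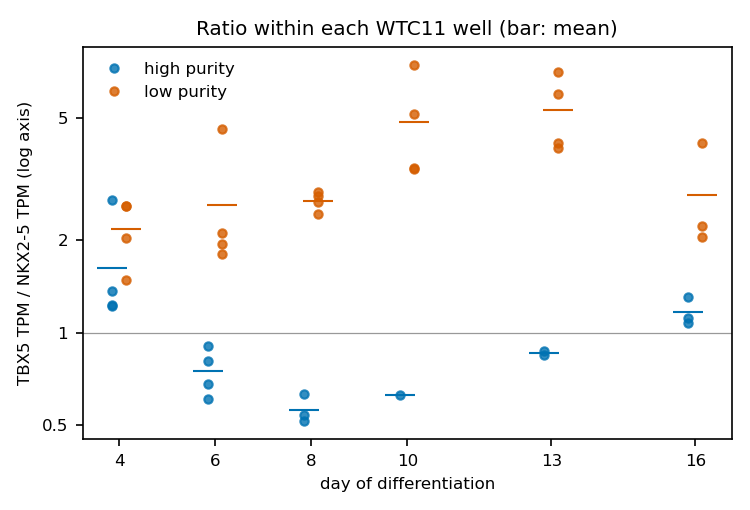
TPM of TBX5 divided by TPM of NKX2-5 in each WTC11 well, on a log axis, by day from day 4, with 1 point per well and a short bar at the class mean. From day 6 the low purity wells (orange) all lie above 1 and the high purity wells (blue) lie under 1 until day 16, when they are at 1.07 to 1.31.

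TBX1 was low throughout. It did not pass 0.703 TPM in any of the 56 wells, and no well held more than 18 of its reads. High minus low on the log2(TPM + 1) scale was between −0.27 on day 2 and 0.15 on day 4, and 7 exact two-sided permutation tests over wells, 1 per day, gave p of 0.114 or more (0.520 or more after Benjamini-Hochberg adjustment), where 4 against 4 wells cannot go below 0.0286 and 3 against 3 cannot go below 0.1. No difference in TBX1 was detected, and with so few reads and wells these tests do not show that there was none.

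Across the 16 class and day means, genes with the course most like a member's were sought among 10664 genes that reached a group mean of 10 TPM, by Pearson correlation of log2(TPM + 1). Each r is a description over 16 groups that share their wells and differentiations. Nearest to NKX2-5 were RCSD1 (0.99), ENO3 (0.98) and MYH6 (0.98), an actin capping regulator, a muscle enolase and the atrial myosin heavy chain. Nearest to MEF2C were UNC45B (0.99), a myosin chaperone, RCSD1 (0.99) and TRIM55 (0.98), a sarcomere-associated ligase. Nearest to TBX20 were HAND2 (0.99), DACT3 (0.99) and ALPK2 (0.99), and nearest to TBX5 were DENND5B (0.99), GRK5 (0.99) and FILIP1 (0.99). GATA5, ANKRD1 and MYLK3 (0.99 each) were nearest to TBX2, and FZD4, FGFR3 and RARB (0.97 each) to ISL1. TBX3, which came on first, was least like the other members, with r between 0.39 (TBX5) and 0.63 (ISL1), and its nearest genes were HMCN1 (0.97), VAMP5 (0.95) and CDK17 (0.94). NKX2-5 and MEF2C had r = 0.97 and TBX2 and TBX20 r = 0.98.

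Other genes of the same programs were read from 4 lists. Of 16 tested cofactors (GATA, HAND, MEF2 and related factors), 3 were higher and 3 lower in high purity wells on day 6 and 6 and 1 on day 16, with a median difference of −0.0063 and 0.34 against 0 over all genes on both days. Over all genes 3.61% were higher and 5.19% lower on day 6, and 5.76% and 7.65% on day 16. HAND1, a factor of the left ventricle and of extraembryonic mesoderm, was on day 6 at 74.9 ± 15.4 TPM in high purity and 859 ± 162 TPM in low purity wells (−3.52 ± 0.11, SD over n = 4). TBX18, a factor of the epicardium and sinus horn, was at 1.80 ± 0.53 and 40.9 ± 10.95 TPM on day 6 (−3.85 ± 0.12) and at 8.15 ± 1.02 and 125 ± 21.4 TPM on day 16. IRX4, a ventricular factor, was the other way on day 16, at 85.3 ± 9.95 against 16.3 ± 5.14 TPM (2.58 ± 0.31, n = 3).

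Of 12 second heart field genes, 4 were higher and 3 lower on day 6 and 5 and 4 on day 16 (medians 0.60 and 0.07). Among the lower ones BMP4, a signalling ligand of the BMP family, was at 78.8 ± 9.24 against 297 ± 42.6 TPM on day 6 and at 10.6 ± 0.78 against 103 ± 10.5 TPM on day 16. It was lower where ISL1 was higher on day 6. Of 12 sinoatrial and conduction genes, 2 were higher and 2 lower on day 6 and 5 and 3 on day 16 (medians 0.36 and 0.55); SMOC2 and TBX18 were the 2 called genes with the largest differences on both days and both were lower, the opposite of TBX3. SMOC2, a matricellular protein, was at 1.42 ± 0.27 against 33.9 ± 9.95 TPM on day 6. Of 12 chamber muscle genes, 1 was higher and 0 lower on day 6 and 4 and 3 on day 16 (medians 0.30 and 0.09). That 1 gene was MYH6, at 1654 ± 426 against 606 ± 238 TPM on day 6 and 3991 ± 535 against 359 ± 54.9 TPM on day 16, and BMP10, a growth factor of trabecular muscle, was lower on day 16, at 2.76 ± 0.86 against 19.8 ± 4.77 TPM. TBX18 stands in 2 of these lists, and in the epicardial markers as well.

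In the RNA-only experiment TBX3 had the largest fitted rise of the members from stage 1 to stage 2 over the 6 differentiations. In high purity H9, though, TBX20 stood above it at stage 2, at 5.10 against 3.09 TPM. From stage 1 to stage 2, TBX3, TBX20, TBX2, TBX5 and ISL1 rose (5 of 8 members, with 14.8% of the 23848 genes tested, edgeR), led by TBX3 at 7.04 on the log2 scale (adjusted p = 5.73e-10). The TBX5 call was lost without H9 (adjusted p = 0.0771) and the ISL1 call without IMR90-4 (adjusted p = 0.0679), and 1 library of the 6, low purity H9, held over 0.031 TPM of TBX5 at stage 2. From stage 2 to stage 3, TBX2 (5.74), ISL1 (4.56), TBX5 (4.27), NKX2-5 (3.80), TBX20 (3.26) and TBX1 (2.13) rose (6 of 8, with 3.57% of all genes, largest adjusted p = 0.0260). TBX1 stayed low, at 0.0940 to 1.43 TPM at stage 3. From stage 3 to stage 4, MEF2C (4.55) and NKX2-5 (3.71) rose (2 of 8, with 2.73%; adjusted p = 0.00381 and 0.0221). Without IMR90-4 or without WTC11, only TBX2 was still called from stage 2 to 3 and no member from stage 3 to 4, and without H9 the calls were 7 and 3.

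No member was called between high and low purity at any stage, and neither was any of the 23848 genes (0%) by edgeR. At an unadjusted p under 0.05 there were 354, 1896, 1798 and 2876 genes at stages 1 to 4, while DESeq2 called 0, 77, 56 and 202 and limma on TPM 0, 2, 0 and 21. With 3 differentiations per class and 1 library each, the differences of the members varied between lines. At stage 4, NKX2-5 was higher in the high purity library of all 3 lines: 61.2 against 1.09 TPM in H9, 99.3 against 61.3 in IMR90-4 and 60.2 against 17.4 in WTC11, a fitted difference of 2.48 (edgeR, unadjusted p = 0.00897, adjusted p = 0.280). MEF2C was at 91.9 against 0.861 TPM in H9, 82.8 against 60.7 in IMR90-4 and 53.3 against 19.0 in WTC11 (2.42, adjusted p = 0.386). ISL1 (20.4 against 0.311, 14.9 against 11.8 and 13.7 against 6.52 TPM) and TBX20 (52.8 against 4.30, 67.5 against 39.1 and 31.9 against 24.3 TPM) had the same order in all 3 lines. ISL1, TBX20 and MEF2C also had it in all 3 lines at stage 3.

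TBX3 and TBX2 had no shared order at stage 4. TBX3 was at 4.98 against 6.47 TPM in H9, 9.10 against 11.6 in IMR90-4 and 8.96 against 7.74 in WTC11, a fitted difference of −0.18 (adjusted p = 0.933). TBX2 was higher in the low purity library of H9 (13.9 against 9.39 TPM) and in the high purity library of the other lines (25.4 against 11.3 and 12.9 against 8.37 TPM). TBX5 had the same split, 4.31 against 5.55 TPM in H9 but 8.59 against 1.93 in IMR90-4 and 9.14 against 4.52 in WTC11. Without H9, TBX5 and MEF2C were called higher in high purity at stage 3 (3.67 and 2.81, adjusted p = 0.0111 and 0.0384, edgeR), the only members called in any setting that left out a line. The shares of all genes called in the fits that left out a line are not given here.

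**Figure D4:**
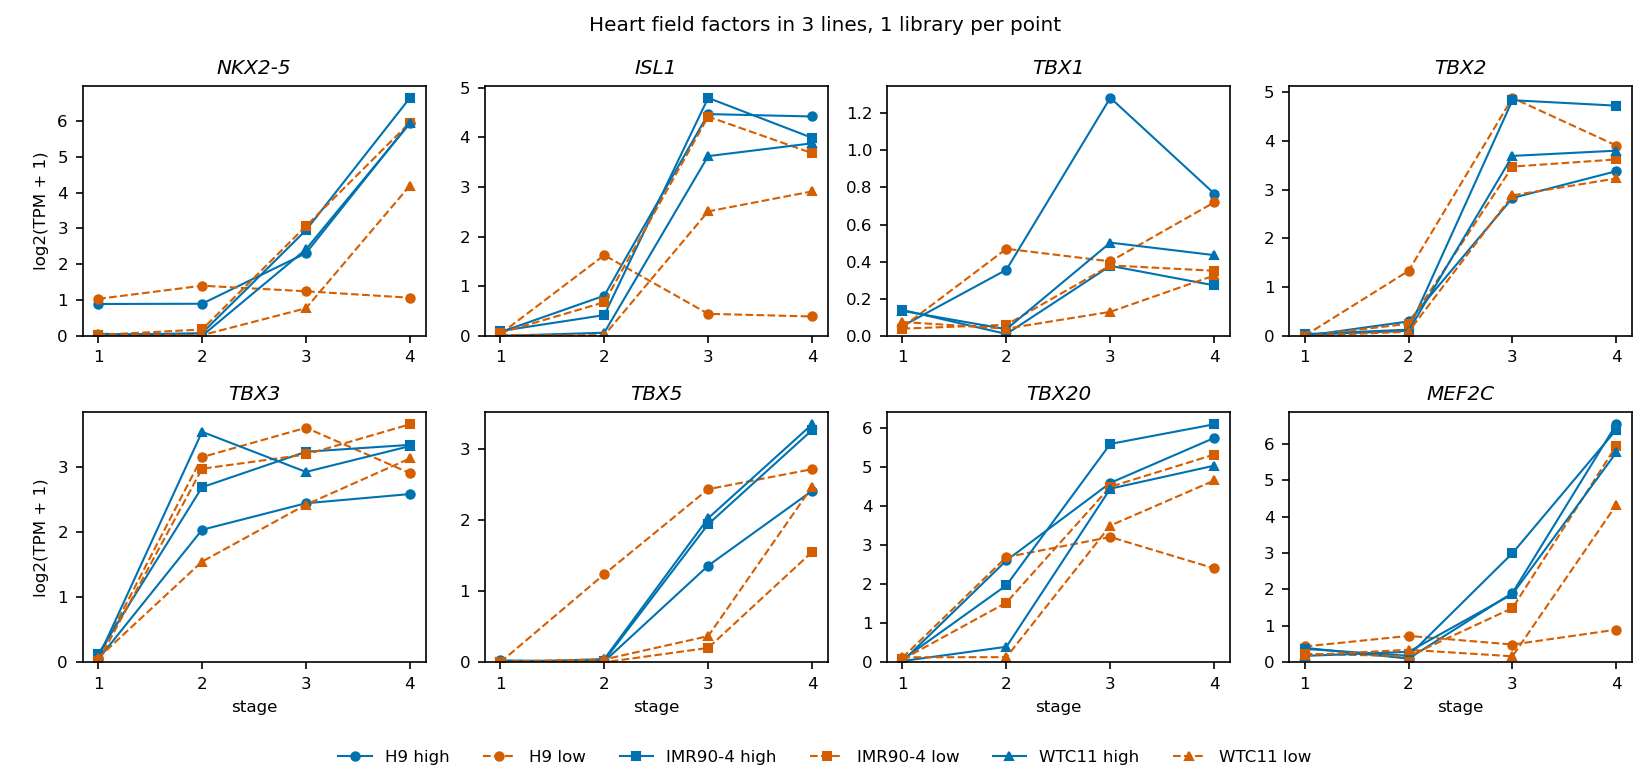
log2(TPM + 1) of the 8 genes by stage in the RNA-only experiment, with 1 library per point, high purity in blue with solid lines, low purity in orange with dashed lines, and a marker shape per line. The vertical axes differ between panels. The low purity H9 differentiation does not pass 1.64 TPM of NKX2-5 or 0.861 TPM of MEF2C at any stage, while its TBX2 at stage 3 is the highest of the 6.

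The low purity H9 differentiation had TBX2, TBX3 and TBX5 within the range of the other libraries at stage 4, with NKX2-5, ISL1, MEF2C and TBX20 far below it. It held 4.30 TPM of TBX20, against 24.3 to 67.5 TPM in the other 5 libraries. It also held 1.09 TPM of NKX2-5 (47 reads), 0.311 of ISL1 (22 reads) and 0.861 of MEF2C (115 reads), but 13.9 of TBX2, 6.47 of TBX3 and 5.55 of TBX5. At stage 2 it held 1.36 TPM of TBX5 (150 reads), 1.52 of TBX2 and 2.09 of ISL1, while TBX5 was at 0 to 0.031 TPM and TBX2 at 0.0602 to 0.227 TPM in the other 5 libraries. ISL1 then went down to 0.360 TPM at stage 3, where the other 5 libraries were at 4.69 to 26.8 TPM. In this library at stage 4 the cardiomyocyte markers summed to 359 TPM (2349 in high purity H9), the stromal markers to 1693 TPM (442) and the epicardial markers to 162 TPM (27.4), and all 7 of each of the last 2 lists were at 1 TPM or more. Their part in the low NKX2-5, ISL1, MEF2C and TBX20 was not tested. NKX2-5 had reads in both H9 differentiations from the start, at 0.853 and 1.05 TPM on day 0 (59 and 49 reads), against 0.0164 to 0.0422 TPM (1 to 2 reads) in the other 4 libraries of that day.

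WTC11 at passage 69 was sampled as low purity in both experiments, with different kits. On day 6 NKX2-5 was at 21.7 TPM (mean of 4 wells) in the poly(A) libraries and 17.4 TPM in the total RNA library, and MEF2C at 30.1 and 19.0 TPM. ISL1 was at 14.8 and 6.52 TPM and TBX1 at 0.289 and 0.253 TPM. The other 4 members differed more: TBX20 was at 138 and 24.3, TBX2 at 55.9 and 8.37, TBX3 at 69.5 and 7.74 and TBX5 at 47.4 and 4.52 TPM, which is 5.69 to 10.5 times as much in the poly(A) wells. On day 4 MEF2C was at 18.0 TPM in the poly(A) wells and 0.121 TPM in the total RNA library, and TNNT2 was at 457 to 524 TPM in the wells and 0.613 TPM in the library. Kit, RNA selection and differentiation cannot be told apart here. The day 4 order of the classes also differed: MEF2C and TBX5 were lower in high purity wells of the multi-omic experiment, but in the RNA-only WTC11 libraries of day 4 high purity held 2.66 TPM of MEF2C against 0.121 and 3.06 TPM of TBX5 against 0.290.

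MEF2C overlaps the antisense gene MEF2C-AS1 over 20776 bases and TBX5 overlaps TBX5-AS1 over 248 bases in the RefSeq annotation, and whether the deposited counting used strand is not stated in the sources used here. MEF2C-AS1 was at 2.35 ± 0.40 TPM in high purity and 0.897 ± 0.454 TPM in low purity wells of day 6 and TBX5-AS1 at 1.41 ± 1.05 and 2.78 ± 0.43 TPM, under the 85.4 and 30.1 TPM of MEF2C and the 47.7 and 47.4 TPM of TBX5. MEF2C lies at chr5:88717117-88904105, ISL1 at chr5:51383448-51394730 and NKX2-5 at chr5:173232109-173235206 on GRCh38. TBX5 (chr12:114353911-114408442) and TBX3 (chr12:114670255-114684175) are neighbours on chromosome 12, and their RNA had r = 0.39 over the 16 groups. TBX20 lies at chr7:35202430-35254100, TBX2 at chr17:61399843-61409466 and TBX1 at chr22:19756703-19783593.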

How the data were processed

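RNA was sequenced from 56 poly(A) libraries (TruSeq Stranded mRNA) and 24 total RNA libraries (SMARTer Stranded Total RNA), per the labels' protocols. The authors deposited whole-number counts per gene and TPM per gene for each experiment, with no normalization of the counts; the submitters' processing notes name STAR 2.5.3a, featureCounts 2.0.3 and hg38, with no role given, and the annotation and strand setting are not given in the sources used here. The 43388 genes are named by symbol. In the RNA-only counts, 36 broken lines of 6 genes were left out.

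Multi-omic counts were not used for the main test because their column names disagree with the deposited TPM. For 25664 genes (1 TPM or more in 3 or more libraries), log2(TPM + 1) after TMM scaling (edgeR 4.0.16) was the response in limma 3.58.1 (trend option, R 4.3.3), with 16 class and day means and 40 residual degrees of freedom. Reads behind TPM values were recovered with gene lengths solved from the RNA-only tables, and 100% of values in 37194 genes came out within 0.05 of a whole read. RNA-only counts were fitted with edgeR's quasi-likelihood test for 23848 genes, with 12 line and stage means and 4 class terms, 1 per stage (8 residual degrees of freedom), and, for changes between stages, with 6 differentiation means. A call is a Benjamini-Hochberg adjusted p under 0.05 over all genes tested with a log2 change of at least 1. Errors after ± are SE for log2 differences and SD for TPM. Scripts were tested on simulated data.

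The members, gene lists, markers and tests were chosen with earlier results of these data known. Apart from the members, named genes are the 2 called genes of each list with the largest difference on day 6 and on day 16, and the 3 genes most like each member. Alternatives were other pseudocounts, filters, scalings, tests and tables, a block for well number, and leaving out each well or line. Well numbers did not pair the wells: of 24 pairs of same-numbered wells 0 had deviations correlated over 0.1 (r from −0.018 to 0.032). One gene that the naming rule chose is not reported here.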

Additional observations from a re-analysis of the deposited data

Results flagged for a closer look

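In 4 of 54 groups of 4 wells, 1 well stood far from the other 3; chance gives about 1 in 20. NKX2-5 was at 7.71 TPM in low purity day 6 well 4, against 25.4 to 27.5 TPM in the others. ISL1 was at 29.8 TPM in low purity day 4 well 3 and TBX2 at 29.3 TPM in high purity day 4 well 2, each below the rest of its group. TBX20 was at 1.52 TPM in high purity day 2 well 2, above the rest of its group.

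The change between neighbouring days differed between the WTC11 differentiations in 8 cases, tested in the limma fit as the change in high minus the change in low purity wells. From day 2 to 4 these were MEF2C (−2.52) and TBX5 (−1.72), from day 4 to 6 MEF2C (3.81), NKX2-5 (2.17) and TBX5 (1.01), from day 6 to 8 TBX2 (1.19) and TBX3 (1.18), and from day 8 to 16 TBX3 (−1.41).

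In the RNA-only experiment, lines moved in opposite directions between high and low purity by more than 1 on the log2(TPM + 1) scale in 3 genes, with 1 library each, and these differences were not tested. At stage 2 TBX3 differed by −1.12 in H9 and 1.99 in WTC11. At stage 3 TBX2 differed by −2.05 in H9 and 1.36 in IMR90-4, and TBX5 by −1.07 in H9, 1.74 in IMR90-4 and 1.66 in WTC11.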

How the results depend on the processing

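Values are log2 differences, high minus low purity, or numbers of members called. On day 2, 1 member was called without the fold threshold, with a pseudocount of 0.1 or by edgeR on recovered reads and 2 by DESeq2, and on day 4, 5 were called without the fold threshold. On later days too, members were added without that threshold. These were TBX2 on day 6 (−0.73), TBX2 (0.46) and TBX20 (0.71) on day 8, ISL1 (0.85) and TBX2 (0.43) on day 13, and ISL1 (0.52) and TBX5 (0.76) on day 16. The shares of all genes called without that threshold, with the other pseudocount or on recovered reads are not given here. The added calls are thus not set against a background. With a pseudocount of 0.1, the changes from day 0 to 2 were 3 in high and 3 in low purity wells, and 1 differed between them. Without scaling, 0 members changed from day 6 to 8 in high purity wells and 0 differed between the classes in that interval; the median of all genes then moved to −0.18, −0.13 and −0.12 on days 8, 13 and 16, to −0.18 from day 6 to 8 in high purity wells and −0.20 for its difference between the classes, and, in low purity wells, to 0.11 between days 0 and 2 and −0.16 between days 8 and 16. Genes higher and lower were then 875 and 2578 on day 8 (1197 and 1925 with scaling), 871 and 1977 on day 13 (1168 and 1599) and 954 and 2435 on day 16 (1479 and 1964). From day 6 to 8 in high purity wells 530 genes rose and 1224 fell (736 and 697), from day 8 to 16 1012 and 1790 in high (1577 and 1343) and 676 and 1132 in low purity wells (921 and 719), and from day 6 to 8 330 and 1042 differed between the classes (477 and 586). It also put TBX20 on day 13 at 0.97, TBX3 on day 16 at 0.86 and the TBX5 change of days 8 to 16 in high purity wells at 0.88, without calls. RLE scaling ended the TBX5 call of days 4 to 6 (0.995). By limma on TPM, 2 members changed from stage 1 to 2.

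Under the column names of the multi-omic count table, edgeR called 0 members on days 4, 6, 8 and 16 and 1 on day 13, and 13 called differences turned: MEF2C 1.63 on day 4; ISL1 −0.36 on day 6; NKX2-5 −1.28, ISL1 −3.15, TBX3 −2.52 and MEF2C −3.24 on day 8. The others were NKX2-5 −8.22, TBX20 −6.42 and MEF2C −4.34 on day 13, and NKX2-5 −0.28, TBX3 −0.019, TBX20 −0.84 and MEF2C −1.90 on day 16. Of the 55 columns of that table, 28 had their nearest library in their own named group.

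Leaving out 1 well, members called were 1 to 2 on day 4 and 3 to 4 on day 16. Members changed were 0 to 2 from day 6 to 8 in high purity wells, 0 to 1 in low purity wells and 1 to 3 from day 8 to 16 in low purity wells, and 1 to 2 differed between the classes in each of these intervals. Leaving out 1 line gave 0 to 2 members at stage 3, and 1 to 7 and 0 to 3 changed from stage 2 to 3 and 3 to 4. The replicate block on well number gave the same calls for all members, with 4 called on day 6 and 4 on day 16. Without a term for the cell line 0 members were called at any stage. Rescaling TPM with TMM factors moved 28 group levels by more than their SD and 100 by less. Low reads limit TBX1 throughout and the other members before day 4, apart from TBX3 on day 2. On days 0 and 2 no WTC11 well of the multi-omic experiment held more than 2 reads of NKX2-5, 3 of TBX2 or 4 of ISL1. The most on those days was 24 for TBX5, 24 for MEF2C and 41 for TBX20.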
